A study of Mus musculus with 56 samples.

Results

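Lungs of female C57Bl/6J mice were compared between 1.5 hours and 1 hour after an injection of oleic acid (OA), to ask which transcripts differed between the 2 earliest times of this acute lung injury. The 1.5 hours group held 6 mice and the 1 hour group 4 mice, on 18 microarrays, of the 35 mice and 60 microarrays of the series. Members were chosen by the time in the sample title, and 1 further microarray at 1.5 hours was left out because its mouse code, P4L1, is also that of a mouse at 4 hours. The labels of 1 microarray of mouse P7L3 disagree, with 3 hours in the title and 1.5 hours in another label, and it was kept at 3 hours, the time that both labels of the other microarray of that mouse give. All mice were wild type and 7 weeks old, were anesthetized with xylazine and ketamine, and received 20 µl of OA through the tail vein. They were killed by bleeding, and RNA came from the smallest lung of each mouse, so that every value is an average over all the cells of that lung, its blood included. A lower value in such tissue can come from fewer cells of a type or from less RNA per cell, and these cannot be told apart. The mouse codes join a P number with an L number that the labels do not explain. At 1 hour the mice were P2L2, P3L2, P4L2 and P2L3, and at 1.5 hours P6L2, P7L2, P8L2, P1L3, P4L3 and P5L3.

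OA is a fatty acid that, once in the blood, lodges in the small vessels of the lung and damages the endothelium and the alveolar lining, so that fluid leaks into the air spaces. It is used as a model of the acute respiratory distress syndrome. In such injury, signals through NF-kB and the MAP kinases are known to switch on immediate early genes first and cytokines and chemokines soon after, and neutrophils are then drawn into the tissue.

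MUSV29K microarrays, on which cDNA clones of mouse genes are spotted on nylon, were probed with radioactive cDNA made from the lung RNA. Values below are log2 normalized signals, and a difference is always the mean at 1.5 hours minus the mean at 1 hour, so that 1 unit is a change of 2-fold. A total of 7625 clones with a gene name (5883 symbols) was tested with limma, and p-values were adjusted by the Benjamini-Hochberg method over all of them. Of these, 2404 clones (31.5%) had a mean over the 10 mice above 9.16, the 95th percentile of the empty spots, and are called bright. Genes of the lung were among the brightest. Surfactant protein D, Sftpd, had a mean of 13.37 ± 0.17 (SD, n = 4) at 1 hour and 13.49 ± 0.17 (SD, n = 6) at 1.5 hours, and all 16 clones of the surfactant and alveolar type II list were bright. Before normalization, the log2 of the median signal of a mouse averaged 8.12 ± 0.57 (SD, n = 4) in the earlier and 8.27 ± 0.38 (SD, n = 6) in the later group (exact permutation test, two-sided, p = 0.61, smallest possible p 0.0048). Clones above the empty spots made up 32.8% ± 10.8 and 33.2% ± 5.37 of all clones (p = 0.94 by the same exact test). A single microarray of the 18, number 24, the only one of mouse P7L2, stood apart, with a mean correlation with the others of 0.874, while number 54 of mouse P4L2 had 0.897 and the other 16 lay between 0.907 and 0.934.

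No clone passed the threshold of 5% in either direction. limma called 0 of 7625 clones higher at 1.5 hours (0%) and 0 lower (0%), and the smallest adjusted p was 1. At an unadjusted p under 0.05, 172 clones (2.26%) were found, 112 higher (1.47%) and 60 lower (0.787%). Of these, 59 were bright, 43 higher and 16 lower. Single mice moved these counts, to 57 higher without P4L2, to 191 higher without P8L2, and to 188 higher and 108 lower without P4L3. Only 22 clones (0.289%) had all 6 mice at 1.5 hours above all 4 mice at 1 hour, and 11 (0.144%) had them all below. Among bright clones this was 1 higher, Slc4a1, and 2 lower, Txnl5 and Dbnl, the last 2 named after their values were seen, with differences of -0.10 and -0.24.

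Most differences were small. Of the bright clones, 2311 (96.1%) differed by less than 0.5, and the median difference was 0.01. The 95% confidence interval of a bright clone reached 0.35 to either side of its difference in the median, a fold of 1.27, with 0.21 at the 5th and 0.94 at the 95th percentile of clones. For 2151 bright clones (89.5%) the whole interval lay inside a change of 2-fold. For the other bright clones the interval reached a change of that size. Only 7 bright clones had means more than 1 unit apart. These were Alb1 and Ftl1, with differences of 1.10 and 1.09, and Tpt1, Abhd12, Tax1bp1, Rad1 and Tor1aip2, with differences of -1.50, -1.40, -1.17, -1.04 and -1.01. In all but Alb1 the interval included 0, and other bright clones of Ftl1, Tor1aip2 and Tax1bp1 differed by -0.32 to 0.10, by 0.09 and by 0.17. The plot of differences against p shows this spread.

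**Figure D1:**
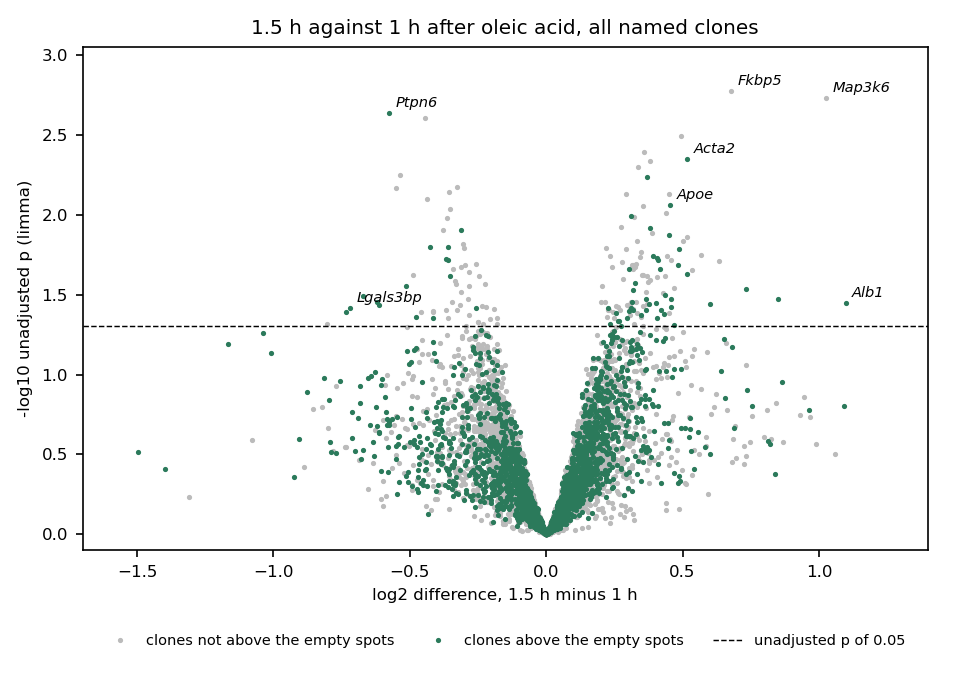
Difference between 1.5 hours and 1 hour (horizontal axis, log2) and -log10 of the unadjusted limma p (vertical axis) for 7625 clones, green where bright and grey otherwise, with the dashed line at an unadjusted p of 0.05. Fkbp5 and Map3k6 reached the top of the plot without being bright, and no clone passed after adjustment.

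The 12 bright genes with the smallest p among those with the higher mean at 1.5 hours are given as values, since none was called and each adjusted p was 1. Acta2, the actin of smooth muscle, read 9.23, 9.39, 9.16 and 9.69 in the mice at 1 hour, and from 9.65 to 10.30 with a median of 9.82 at 1.5 hours. The highest mouse at 1 hour lay just above the lowest at 1.5 hours, and the difference was 0.52 (95% interval 0.20 to 0.84, unadjusted limma p = 0.0045). Icam2, an adhesion molecule of endothelium, read 9.07, 9.21, 8.95 and 9.56 at 1 hour and from 9.41 to 10.06 with a median of 9.60 at 1.5 hours. Its difference was 0.45 (interval 0.11 to 0.79) and the groups overlapped in 1 mouse at 1 hour, P2L3.

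Slc4a1, the anion exchanger of red cells, read 9.56, 9.69, 9.71 and 9.77 at 1 hour and from 9.85 to 10.54 with a median of 10.00 at 1.5 hours. It was the only bright gene whose mice were all higher at 1.5 hours, by 0.41 in the mean (interval 0.08 to 0.73), and its other clone, not bright, differed by 0.05. Apoe, an apolipoprotein that macrophages also make, read 11.85, 12.00, 11.38 and 11.90 at 1 hour and from 11.95 to 12.46 with a median of 12.27 at 1.5 hours. In Apoe 1 mouse at 1 hour, P3L2, reached into the range of 1.5 hours, and the difference was 0.45 (interval 0.14 to 0.77).

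Nfkbia, which encodes the inhibitor that holds NF-kB in the cytoplasm and is itself switched on by NF-kB, was the one gene of the NF-kB list among the 12. Its brighter clone read 10.74, 11.68, 10.86 and 11.23 at 1 hour and from 11.31 to 11.80 with a median of 11.67 at 1.5 hours, a difference of 0.48 (interval 0.09 to 0.88, unadjusted limma p = 0.021). Mouse P3L2 at 1 hour was within the range of 1.5 hours. The second clone of Nfkbia, also bright, had means of 10.77 and 10.75 and a difference of -0.02. In that second clone mouse P7L2 read 9.51, and every other mouse at 1.5 hours was at 10.82 or above. Without P7L2 the differences were 0.46 in the first clone and 0.23 in the second.

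The other 7 genes differed by 0.30 to 0.49. They were the RNA helicase Ddx17 (0.49), Copg, a coat protein of vesicles between the Golgi apparatus and the endoplasmic reticulum (0.41), the ubiquitin protease Usp12 (0.39), Gnmt, a methyltransferase of liver (0.38), Sra1, an RNA coactivator of steroid receptors (0.37), Carhsp1, a cold shock domain protein (0.31), and Gas5, a host of small nucleolar RNAs (0.30). With Acta2, Icam2, Slc4a1, Apoe and Nfkbia these make up the 12. Gas5 was read by 2 further clones, 1 of them brighter than the named clone. The brighter one, with means of 9.54 and 9.44, differed by -0.10, and the other, not bright, by 0.03. Ddx17 was also read by a brighter clone, with a difference of 0.25.

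Among the 12 bright genes with the lower mean at 1.5 hours, Ptpn6 had the smallest p of all bright clones. It encodes a tyrosine phosphatase of blood cells that damps receptor signalling. It read 10.98, 11.23, 11.31 and 11.14 at 1 hour and from 10.34 to 11.09 with a median of 10.57 at 1.5 hours. Only mouse P1L3 at 1.5 hours lay within the range of 1 hour, and the difference was -0.58 (95% interval -0.90 to -0.25, unadjusted limma p = 0.0023, adjusted p = 1). A second clone of Ptpn6, at 14.14 ± 0.08 at 1 hour, differed by -0.79 (interval -2.28 to 0.69) and by -0.17 without mouse P4L3, which read 10.26 there.

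F11r, a junction protein of epithelium and endothelium, read 9.63, 9.44, 9.61 and 9.71 at 1 hour and from 9.05 to 9.51 with a median of 9.28 at 1.5 hours, a difference of -0.31 (interval -0.55 to -0.08) against -0.17 in its other clone, which was not bright. Arpc5, a subunit of the Arp2/3 complex that branches actin, differed by -0.36 and Abi1, an adaptor of the WAVE complex, by -0.42. Bgn, the matrix proteoglycan biglycan, differed by -0.37 in its brighter clone and by -0.16 in the other, both bright.

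Txnip, which binds thioredoxin and follows glucose supply, read 11.18, 11.42, 11.58 and 11.69 at 1 hour and from 10.90 to 11.43 with a median of 11.08 at 1.5 hours, a difference of -0.35 (interval -0.65 to -0.06). Its groups overlapped, and Tparl (current symbol Tmem165), a Golgi membrane protein, differed by -0.36 with overlap in 1 mouse at 1.5 hours, and by 0.11 and -0.06 in 2 clones that were not bright. Lgals3bp, a secreted galectin ligand, had the largest difference of the 12, -0.72 (interval -1.39 to -0.05). The SD of Lgals3bp was 0.09 at 1 hour and 0.68 at 1.5 hours, where mouse P4L3 read 8.90 and mouse P6L2 10.95. Its other clone, not bright, differed by -0.11. On the membrane the spot of Lgals3bp lies beside that second clone of Ptpn6, and P4L3 was the lowest mouse in both.

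The last 4 genes of the 12 shared their highest and their lowest mouse. Fbxo22, a subunit of a ubiquitin ligase, Pigv, an enzyme of GPI anchors, Hps4, a protein of lysosome-related organelles, and Pdcd4, an inhibitor of translation, differed by -0.67, -0.62, -0.61 and -0.51. Fbxo22 read 9.30, 9.88, 10.73 and 10.14 at 1 hour and from 8.92 to 10.04 with a median of 9.23 at 1.5 hours, and the groups overlapped. In each of the 4 genes mouse P4L2 was the highest of the 10 and mouse P6L2 the lowest. That was also so in Cklf, Lef1 and Cyp2e1, genes of other lists. Without P4L2, the difference of Fbxo22 was -0.43. On signals normalized together with serum mice, Pigv averaged 10.02 and 9.40 in the OA mice at 1 and 1.5 hours. In the serum mice it read 6.96 and 7.01 at 1 hour and 6.93 at 1.5 hours. The other 3 genes were also higher in the OA mice. Hps4 averaged 10.61 and 9.99 against 8.15 to 8.64 in serum mice. Fbxo22 averaged 9.91 and 9.24 against 7.76 to 8.44, and Pdcd4 9.97 and 9.45 against 7.60 to 8.21.

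**Figure D2:**
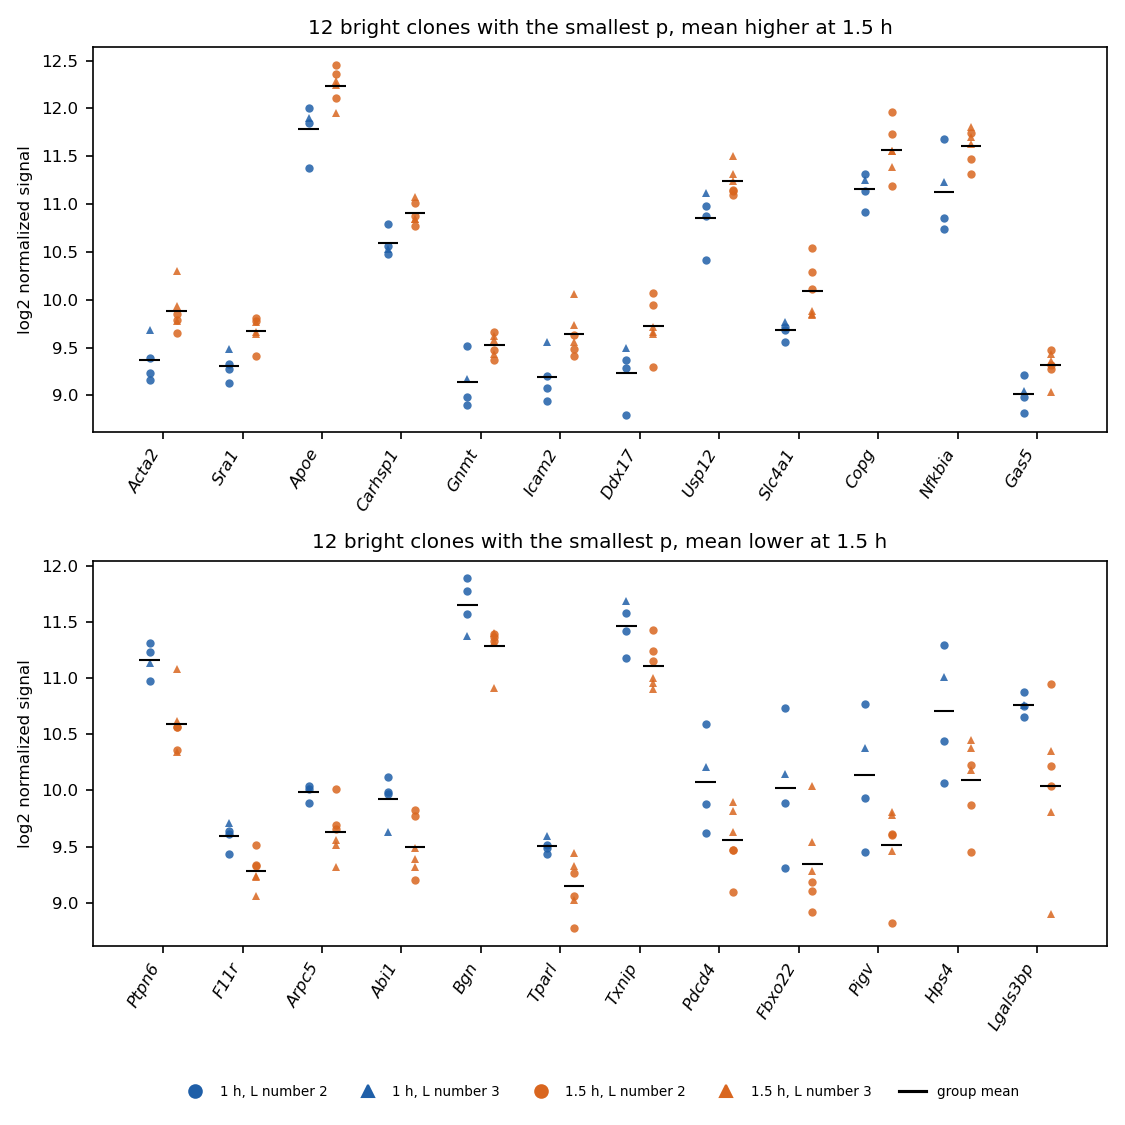
Values in each mouse (points, log2 normalized signal) of the 12 bright genes with the smallest p and a higher mean at 1.5 hours (top) or a lower one (bottom), 4 mice at 1 hour in blue and 6 at 1.5 hours in orange, circles for L number 2, triangles for L number 3, bars for group means. The groups overlap in every gene except Slc4a1, and the 10 mice of Lgals3bp, Pigv, Hps4 and Fbxo22 are spread most widely.

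The smallest p of all 7625 clones belonged to Fkbp5 and Map3k6, which were not bright and are named because of their rank. Fkbp5, a chaperone of the glucocorticoid receptor that is itself switched on by glucocorticoids, read 7.54, 7.68, 7.38 and 7.42 at 1 hour and from 7.64 to 8.48 with a median of 8.28 at 1.5 hours. All but 1 mouse at 1.5 hours, P1L3, were above every mouse at 1 hour, and the difference was 0.68 (95% interval 0.32 to 1.04, unadjusted limma p = 0.0017, adjusted p = 1). Map3k6, a kinase at the head of a MAP kinase cascade, read 6.93, 8.15, 7.04 and 7.75 at 1 hour and from 7.94 to 8.90 with a median of 8.51 at 1.5 hours. Its difference was 1.03 (interval 0.47 to 1.58, unadjusted limma p = 0.0019), and only P3L2 at 1 hour reached into the range of 1.5 hours.

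Neither gene was above the 95th percentile of the empty spots in any of the 10 mice, so both were read within the range of spots that carry no clone. Their means were higher at 3 and 4 hours and back below the mean of 1.5 hours at 18 hours. Fkbp5 averaged 9.39 ± 0.70 at 3 hours (SD, n = 7) and 9.65 ± 0.48 at 4 hours (n = 4), and 7.77 ± 0.21 at 18 hours (n = 3), where the 3 hours group includes mouse P7L3. Map3k6 averaged 9.50 ± 0.12, 9.72 ± 0.35 and 7.52 ± 0.15 in the same groups. The values at 1.5 hours thus lay between those at 1 hour and those at 3 hours for both genes, with no test of that order. When any single mouse was left out, the difference between 1.5 hours and 1 hour ran from 0.62 to 0.79 for Fkbp5 and from 0.85 to 1.25 for Map3k6. Both genes were picked for their small p in these same mice, so these ranges add no support.

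The inflammatory lists contained no called clone. Of 67 chemokine and cytokine clones 16 were bright, and their median difference was -0.08 against 0.01 over all bright clones. In this list 6 bright clones had the higher mean at 1.5 hours and 10 the lower, and 1 had an unadjusted p under 0.05. That clone was Ccl24, an attractant of eosinophils, which read 11.81, 11.66, 11.48 and 11.06 at 1 hour and averaged 11.09 ± 0.29 (SD, n = 6) at 1.5 hours, a difference of -0.41. Cxcl15, the chemokine of lung epithelium, was the brightest, at 12.93 ± 0.59 and 12.68 ± 0.38, a difference of -0.25 (interval -0.84 to 0.35). Cklf followed at 12.72 ± 0.79 and 12.22 ± 0.74. The macrophage chemokines Ccl3 and Ccl4 were not bright, and their differences were 0.02 and -0.17 for the 2 clones of Ccl3 and -0.01 for Ccl4.

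Of the chemokine and MAP kinase genes that the study placed in its early group, a list chosen on these same samples, 31 clones were on the microarray and 6 were bright. The median difference of the 6 was -0.12. Cxcl5, an attractant of neutrophils, differed by 0.12 (interval -0.14 to 0.39), Map3k7ip2 (current symbol Tab2), an adaptor of the kinase TAK1, by 0.03 (-0.21 to 0.26), Ccl6 by -0.09 (-0.64 to 0.46) and Ccl22 by -0.15 (-0.46 to 0.16). The growth factor Fgf1 differed by -0.25 (-0.57 to 0.07). Dusp1, a phosphatase that switches MAP kinases off, differed by -0.36 (-1.03 to 0.32) and by -0.02 without mouse P3L2. The intervals of these 6 bright clones all include 0, and those of Ccl6 and Dusp1 are wide. Map3k6, given above and not bright, is also among the MAP kinase genes that the study describes as activated early. Its difference was 1.03 (0.47 to 1.58).

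Other early genes gave the same kind of result. Of 28 immediate early clones 11 were bright, 6 with the higher mean and 5 with the lower, and the median was 0.05. Klf2, a transcription factor of resting endothelium, differed by 0.12 (interval -0.33 to 0.58). Fos, a subunit of the transcription factor AP-1, read 10.63, 11.34, 10.64 and 10.20 at 1 hour and 10.29 to 10.98 in all mice at 1.5 hours but P7L2, which read 14.08. The difference of Fos was 0.48 with that mouse and -0.10 without it. The 6 bright clones of NF-kB feedback and targets had a median of 0.03, and Icam1, an adhesion molecule switched on by NF-kB, differed by 0.13 (-0.29 to 0.55). Of 18 bright MAP kinase clones 8 were higher in the mean and 10 lower, with a median of -0.04. The kinase Map3k11 differed by 0.43 (0.02 to 0.84).

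Neutrophil markers were highest in a single mouse. Of 18 clones 6 were bright, all 6 had the lower mean at 1.5 hours and none had an unadjusted p under 0.05, with a median difference of -0.15. S100a8, a calcium-binding protein packed in neutrophils, read 12.44, 14.27, 11.27 and 10.83 at 1 hour and from 10.84 to 12.55 with a median of 11.90 at 1.5 hours. Its partner S100a9 read 12.43, 14.07, 11.51 and 11.63 at 1 hour and from 11.46 to 12.42 with a median of 11.91 at 1.5 hours. Mouse P3L2 was the highest in both, and without it the differences went from -0.34 to 0.35 for S100a8 and from -0.54 to 0.01 for S100a9. The mean of the 6 neutrophil clones was 11.22 in P3L2, between 10.10 and 10.50 in the other mice at 1 hour, and between 10.10 and 10.40 at 1.5 hours. The same mouse was the highest of the 10 in Il1b, which read 10.58 there and between 7.66 and 9.37 in the others, and in Dusp1 and both clones of Mt2. The part of neutrophil RNA in the values of Il1b, Dusp1 and Mt2 was not tested.

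The remaining lists are summarised by their bright clones, beside a median of 0.01 over all bright clones. No list held a called clone. Hemoglobin and red cell clones (17 bright) had a median of -0.00. Where a list gene has several clones, the value is that of the brightest. The highest normalized value was 14.41 on each of the 18 microarrays, shared by 5 spots, and the brightest clone of the globin Hba-a1 read 14.41 in every mouse but P8L2. That of Hbb-b1 read between 14.32 and 14.41 in all mice. A change in such clones at the top of the scale could not be read, so no difference is given for them. Endothelial clones (19 bright) had a median of 0.06, with 14 means higher and 5 lower, by -0.40 to 0.46. The 2 brightest, Ly6e and Tspan7, differed by 0.06 and 0.18, and Tek, the receptor of angiopoietin, by 0.46. Surfactant and alveolar type II clones (16) had a median of 0.07, and alveolar type I, club and ciliated cell clones (8) a median of 0.07 with all 8 means higher at 1.5 hours, by 0.02 to 0.24. Cbr2, a carbonyl reductase of club cells, also lay near the top of the scale, between 14.19 and 14.41.

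Fibroblast and smooth muscle clones (26 bright) had a median of -0.06, with Sparc at -0.08 and Mgp at 0.03, both proteins of the matrix. Macrophage and monocyte clones (9) had a median of -0.06, T and NK cell clones (4) of -0.05, B cell and immunoglobulin clones (6) of 0.22 and platelet clones (2) of 0.28. The immunoglobulin genes KACMOUSE and Igh-6 differed by 0.45 and 0.41, with intervals from -0.43 to 1.33 and from -0.54 to 1.36. These means came from few mice that spread widely, with an SD of 0.84 and 0.93 at 1.5 hours.

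Stress and metabolic lists lay close to the rest. Glucocorticoid and metallothionein clones (13 bright) had a median of 0.05, and Errfi1, a brake on the EGF receptor, differed by 0.39 (interval -0.18 to 0.96). Heat shock proteins and chaperones (40) had a median of 0.06, with Hspa8 at 0.19, against -0.30 in its other clone, and Hspa5 at 0.18. Endoplasmic reticulum stress clones (16) had a median of 0.02 and ran from -0.275 to 0.40. Calr differed by -0.02, Xbp1 by 0.27 and Atf4, a transcription factor of that response, by 0.40. Hypoxia and glycolysis clones (12) had 0.01, with the lactate dehydrogenase Ldha at 0.03. Fatty acid oxidation and PPAR clones (15) had 0.01, with the acyl-CoA synthetase Acsl4 at 0.11. Fatty acid and sterol synthesis clones (10) had -0.11, where the desaturase Scd2 went from -0.44 to 0.13 without mouse P7L2.

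The largest lists held genes of basic cell functions. Cytosolic ribosomal proteins (95 bright clones) had a median of 0.10, with 71 means higher and 24 lower, and mitochondrial respiratory chain clones (67) a median of 0.05, with 47 higher and 20 lower. The mean of the ribosomal clones ran from 11.89 to 12.51 in the mice at 1 hour, with P4L2 the lowest, and from 12.19 to 12.53 at 1.5 hours. Proteasome and ubiquitin clones (40) had a median of -0.01, and interferon and MHC clones (23) 0.01, with B2m, the light chain of MHC class I, at -0.06 and 0.40 in its 2 clones. Coagulation clones (5) had 0.11, circadian clock clones (4) 0.22, cytokine receptors (8) 0.02, and the 2 bright heart and skeletal muscle clones 0.09 and -0.09. The clock list holds Cry1, a repressor of the clock, whose difference was 0.42 and, without mouse P7L2, -0.08. Without that mouse the median was -0.02 for the clock list, -0.05 for the coagulation list, 0.01 for the fatty acid and sterol synthesis list and 0.24 for the glucocorticoid and metallothionein list. The mean of the clock clones differed by 0.38 in mice with L number 2 and by 0.03 in those with L number 3.

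**Figure D3:**
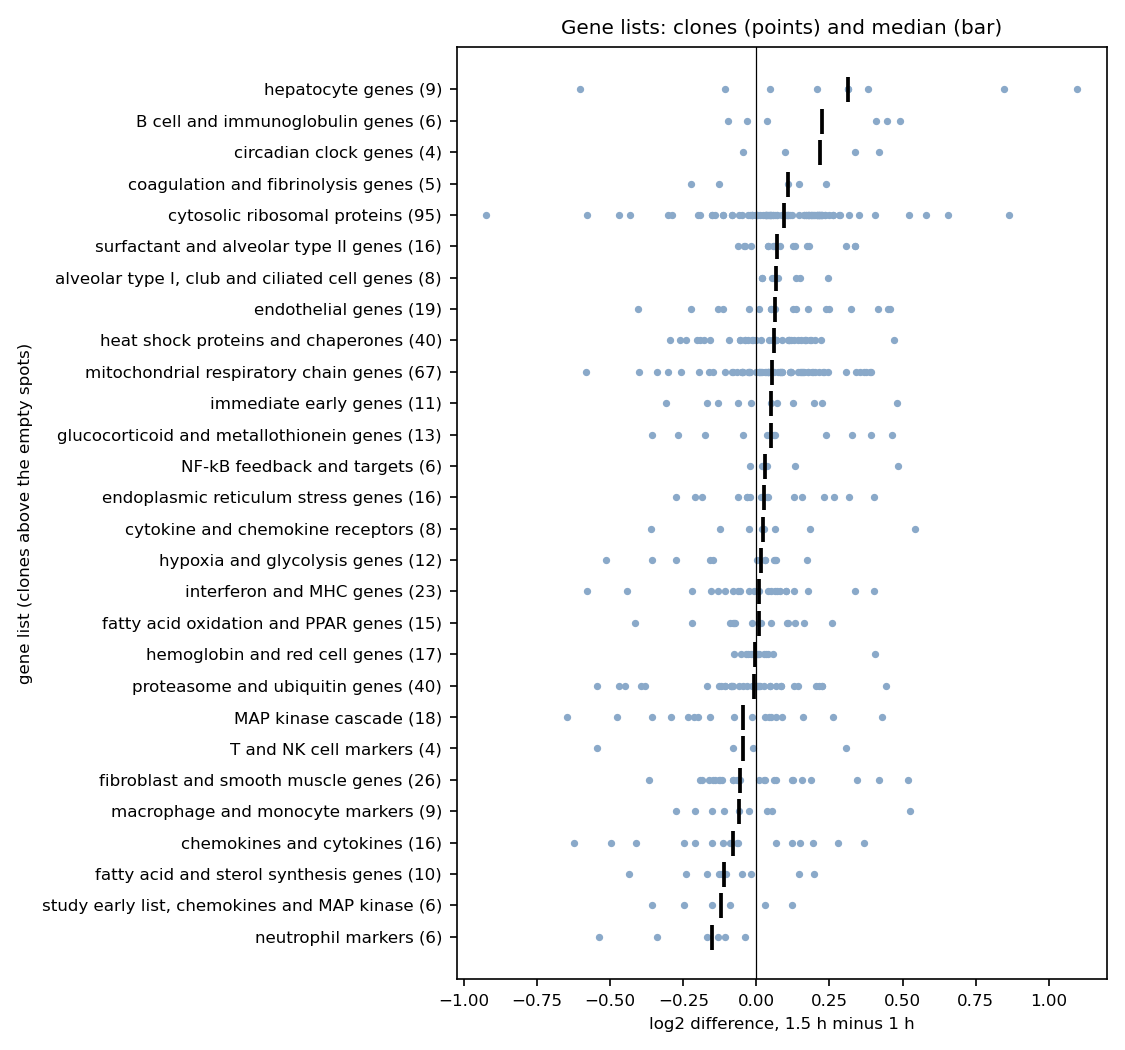
Difference between 1.5 hours and 1 hour (horizontal axis, log2) of each bright clone (points) and the median (bar) for every gene list with at least 4 bright clones, whose number stands in brackets. Medians run from -0.15 for the neutrophil list to 0.31 for the hepatocyte list.

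Genes best known from liver made up the list farthest from 0. This list was written after the values were seen, so its count is a description and supports nothing. Of 30 clones of hepatocyte genes 9 were bright, and 26 of the 30 had the higher mean at 1.5 hours. In 10 of the 30 the unadjusted p was under 0.05, all higher, against 1.47% of all clones. Alb1 (current symbol Alb), serum albumin, read 9.88, 9.30, 10.08 and 11.38 at 1 hour and from 10.23 to 12.50 with a median of 11.29 at 1.5 hours, a difference of 1.10 (interval 0.09 to 2.11). The groups overlapped, P2L3 being the highest mouse at 1 hour and P5L3 the lowest at 1.5 hours.

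The sign of the difference in Alb1 was opposite within the 2 L numbers, and a test of L number by time called no clone. In mice with L number 2 (3 against 3) the difference of Alb1 was 2.06, and in mice with L number 3 (3 against 1) it was -0.67. The sign was also opposite in Fga, with 1.10 against -0.43, in Hpxn, with 0.79 against -0.20, and in Mat1a, with 0.68 against -0.07, none of them bright. The mean of the 9 bright clones of the list differed by 0.46 in L number 2 and by -0.11 in L number 3, where the earlier time is 1 mouse, P2L3. Over all 10 mice the differences of clones of the list that were not bright were 0.63 for Fga, a chain of fibrinogen, 0.46 for Hpxn (hemopexin), 0.50 for Rbp4, the carrier of retinol, and 0.44 for Mat1a, which makes the methyl donor of the cell. Cyp2e1, a cytochrome of liver that is also found in lung, had the lower mean at 1.5 hours, by -0.60 (interval -1.39 to 0.18). The mean of the 9 bright clones ran from 9.89 to 10.44 at 1 hour and from 10.28 to 10.81 at 1.5 hours. In mice given serum without OA, on signals normalized together over 60 microarrays, the same mean was 9.32 at 1 hour (2 mice) and 9.85 at 1.5 hours (1 mouse). No clone of the list was called, and where such RNA came from was not tested.

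**Figure D4:**
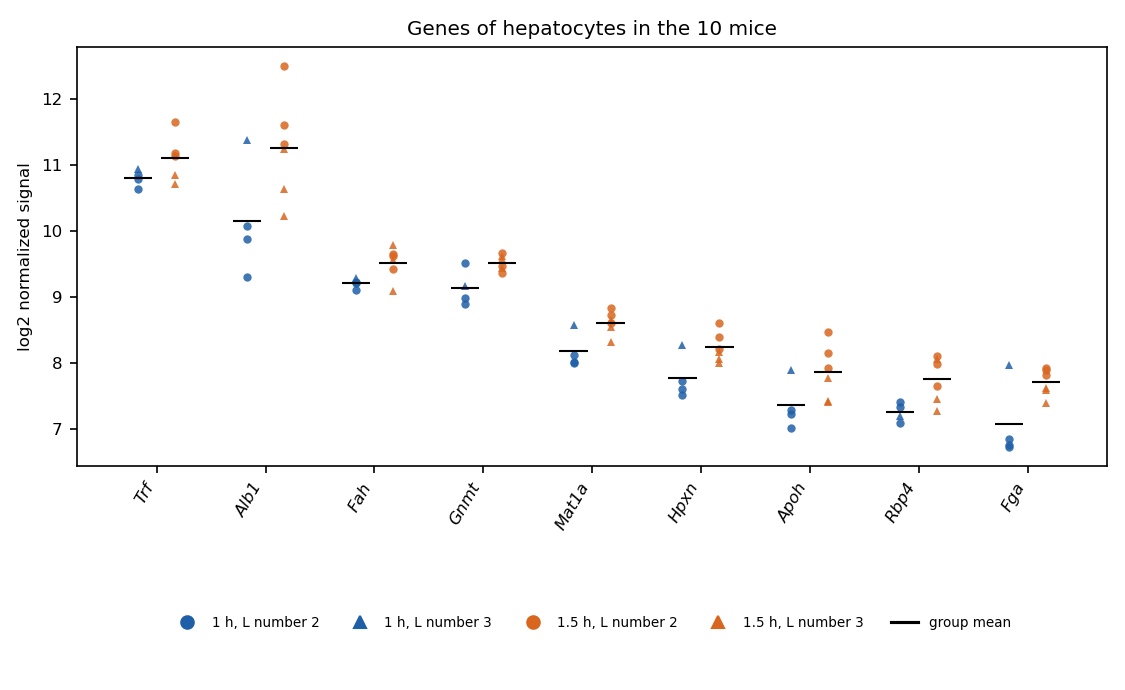
Values in each mouse (points, log2 normalized signal) of 9 hepatocyte genes, 4 mice at 1 hour in blue and 6 at 1.5 hours in orange, circles for L number 2, triangles for L number 3, bars for group means. Alb1 spans 9.30 to 12.50 over the 10 mice, and the blue triangle, mouse P2L3, is the highest mouse at 1 hour in Alb1 and Fga.

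The spread between microarrays was as large as that between mice. In the 8 mice hybridized on 2 microarrays, the SD between microarrays of 1 mouse had a median of 0.24 over bright clones, and the SD between mice of a group, each the mean of its microarrays, had a median of 0.25. Microarrays of 1 mouse correlated at 0.938 in the median (0.904 to 0.963), those of different mice at the same time at 0.918 and those of different times at 0.929. The number that opens the title of each microarray, whose meaning is not given, went with more clones than the time did. In a fit with both terms and the mouse as a random block, chosen after the data were seen, limma called 483 clones (6.33%) for that number, 107 rising with it and 376 falling, and 0 clones for the time.

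On microarray 24, the only one of mouse P7L2, 254 of all 9984 spots lay more than 2 units from the median of the other 17 microarrays, the most of any of the 18. For 58.8% of the 250 that have a spot in the next column, the value was within 0.5 of what the spot in the next column reads on the other microarrays, against 12.1% for the previous column and 17.5% for a spot 5 columns on. Fos is one of these spots. It read 14.08 there against 10.39 elsewhere, while the next spot, Lancl2, reads 13.71. Scd2 read 8.90 against 12.38, and the spot after it reads 9.04. Other microarrays matched a spot of the previous row, number 47 in 55.6% of 63 far spots, number 88 in 47.4% of 78, number 61 in 46.3% of 82, number 12 in 44.8% of 67 and number 1 in 30.4% of 102. Number 16 matched the next row in 43.5% of 124. With every far spot left out, matching a neighbour or not, limma again called 0 clones, and 173 had an unadjusted p under 0.05. This alternative was also chosen after the data were seen. The difference of Fos went from 0.48 to -0.10, that of Cry1 from 0.42 to -0.08, that of Scd2 from -0.44 to 0.13, that of S100a9 from -0.54 to 0.01 and that of Alb1 from 1.10 to 0.91. For S100a9 the value is that without mouse P3L2, whose spot was far from the others on both of its microarrays, 61 and 94. The first-named clones of Acta2, Ptpn6 and Fkbp5 lost no spot, and their differences were the same by construction.

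**Figure D5:**
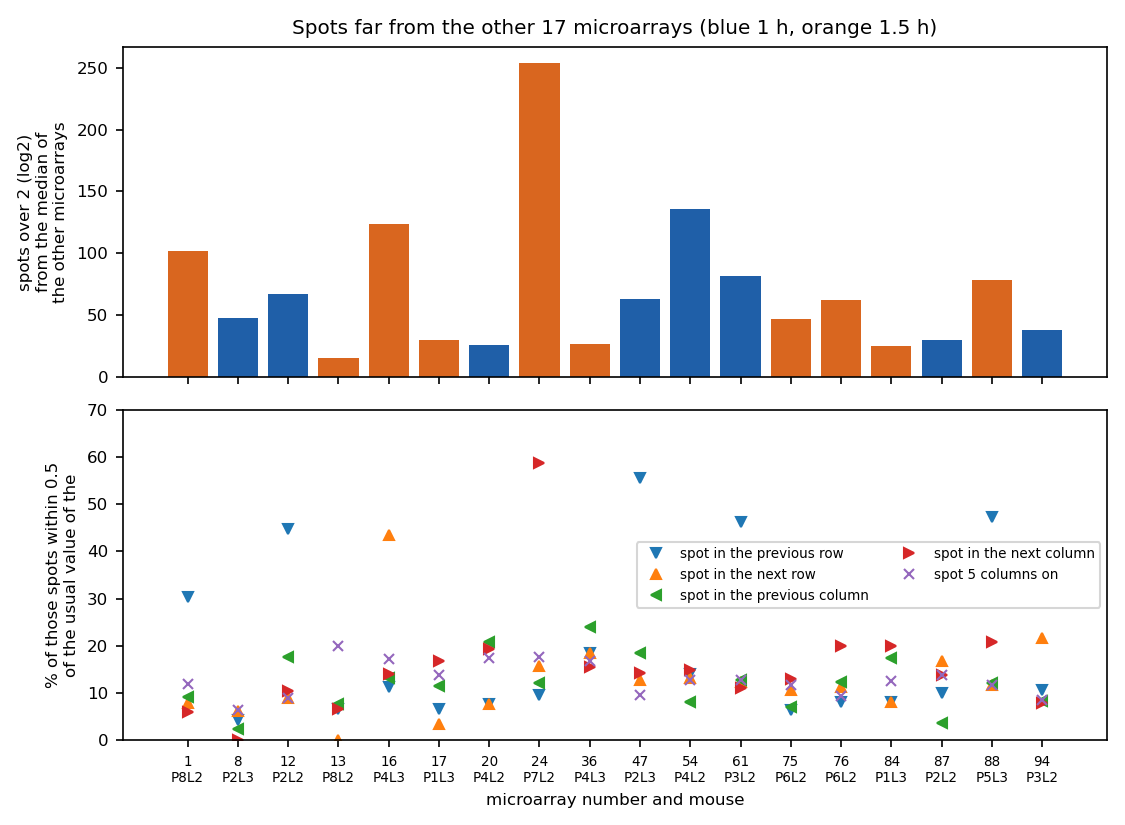
Number of spots more than 2 units (log2) from the median of the other 17 microarrays (top, blue at 1 hour, orange at 1.5 hours), and percent of those spots whose value is within 0.5 of the usual value of a neighbouring spot or of a spot 5 columns on (bottom), for each of the 18 microarrays with its mouse. Microarray 24 stands out with 254 spots and 58.8% for the next column.

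Mice given physiological serum through the tail vein were counted as 2 at 1 hour and 1 at 1.5 hours. That is too few to give the serum change its own spread at 1.5 hours. Serum labels carry no mouse code, and the 2 serum microarrays at 1.5 hours were averaged on the assumption that they read 1 mouse. The serum mice were compared with the OA mice on signals normalized together over 60 microarrays. In the serum mice limma called 0 clones between the times, with 217 at an unadjusted p under 0.05, in a fit where the single serum mouse at 1.5 hours was assumed to vary like the other groups. The difference between the OA change and the serum change was called in 0 of 7625 clones (0%), with 231 at an unadjusted p under 0.05. Icam2 read 10.62 and 10.68 in the serum mice at 1 hour and 10.38 at 1.5 hours, against means of 9.09 and 9.54 in the OA mice on that scale. Map3k6 read 9.06 and 7.68 at 1 hour and 7.74 at 1.5 hours in serum, a spread at 1 hour larger than its OA difference. Alb1 read 10.95 and 8.61 at 1 hour and 10.79 at 1.5 hours in serum, a gap between the serum mice at 1 hour wider than the OA difference.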

How the data were processed

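The authors quantified the images with Bzscan2 and deposited linear intensity values of 9984 spots per microarray, together with a series table of quantile-normalized log2 values. The methods name corrections for background and for the signal of nearby spots, and whether the deposited intensity includes them is not stated. OA columns of the log2 table rank spots exactly as the image signal at constant diameter, and its serum columns, 5 in number, were not used. Gene symbols came from the spot lists, 512 empty spots set the background and 200 control and 1647 unnamed spots were not tested. Symbols matched RefSeq (GRCm38.p6) directly for 4974, through a synonym for 804, and not or not uniquely for 105 of 5883.

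Microarrays of 1 mouse were averaged and groups compared with limma 3.58.1 (lmFit and eBayes) in R 4.3.3, without serum subtraction. OA and serum mice were compared on the deposited intensity, with 1 as its floor, taken as log2 and quantile-normalized over all 60 microarrays. The fits were tested on simulated data. The number of microarrays limits the precision. The members, gene lists and tests were chosen with earlier results of these data known. The genes named are the 12 bright clones of each direction with the largest difference among those called or, failing that, the smallest p, 1 per symbol, identifiers without a gene name passed over. To these come the 2 brightest members of each list and the bright members of the early list of the study. Some further list members, Tek and Atf4 among them, are named outside this rule. Where several clones carry a symbol, the clone named first is the one the rule chose. Some members of the lists are not reported here by name. No set test was run. Alternatives were other signals and normalizations, tests of bright clones only, all OA mice in 1 fit, the L number as a block or apart, each microarray as a sample, 1 microarray per mouse, and leaving out each mouse.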

Additional observations from a re-analysis of the deposited data

Results flagged for a closer look

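In 19 of 210 groups of mice tested, each a named clone at 1 time, 1 mouse lay far from the others by Dixon's criterion, which flags about 1 in 20 groups by chance. Of these, 6 belonged to mouse P7L2, read on microarray 24 only. There Fos was at 14.08 against 10.98 for the nearest mouse, Cry1 at 12.87, Copg (its dimmer clone) at 9.61, Scd2 at 8.90, Nfkbia (its second clone) at 9.51 and Gas5 (a clone not bright) at 8.49.

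The other flags at 1.5 hours were Ptpn6 (its second clone) at 10.26 in P4L3 against 13.61 for the nearest mouse, Bgn at 10.91 and Sparc at 13.75 in P1L3, Pigv at 8.82, Cbr2 at 14.19 and F11r (its dimmer clone) at 9.12 in P6L2, and Hba-a1 at 14.36 in P8L2. At 1 hour they were Cxcl15 at 12.05 and Cd6 at 10.08 in P2L3, Map3k11 at 10.12 in P2L2, Cxcl5 at 9.645 in P3L2, and Cbr2 at 14.195 and Lgals3bp (its dimmer clone) at 7.345 in P4L2.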

How the results depend on the processing

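Counts of called clones were 0 in both directions under every alternative run except 1. With the fitted signal at calculated diameter, 1 clone was called higher, Melk, which was not bright, with a difference of 2.09 (limma, adjusted p = 0.019) against 0.09 in the log2 table (unadjusted p = 0.69). Under that signal 5 of the 24 named bright genes changed sign, Carhsp1 to -0.98, Ddx17 to -0.30, Usp12 to -0.34, Copg to -0.0212 and Bgn to 0.0028. No other alternative with a test changed the sign of any of the 24, of Fkbp5 or of Map3k6, and with L number 3 alone, where no test was made, none did either. Leaving out each mouse in turn gave 0 to 0 called clones higher and 0 to 0 lower. The clones at an unadjusted p under 0.05 then ran from 57 to 191 higher against 112 with all mice, and from 49 to 108 lower against 60. The smallest adjusted p was 0.247 in the mice with L number 2 only and 0.349 without P2L3. The difference between the OA and the serum change was called in 1 clone, Nbn, which was not bright, when serum mouse 1 at 1 hour was left out (adjusted p = 0.0061), and in 0 without the other. With the L number as a block, 0 clones were called as well. The causes of these changes were not tested. With 4 and 6 mice, a clone whose interval is wider than a change of 2-fold leaves such a change undecided.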
